A study of Homo sapiens with 12 samples.

Results

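Amino acids cross the plasma membrane and the lysosomal membrane through solute carriers, and the genes described here are the amino acid transporters of the SLC1, SLC3, SLC7, SLC36, SLC38 and SLC43 families in HMEC-1 cells, an immortalised human microvascular endothelial line. They were chosen by symbol alone, and 40 of the 60623 genes in the deposited table matched. The cells formed 4 groups of 3 libraries, all harvested at 48 h. Control cells (CT) had fresh medium only, and the other groups had recombinant oncostatin M, which belongs with the interleukin-6 cytokines. It was given alone (OSM), with PF9363, labelled a KAT6A/B inhibitor, at 30 µg/mL (PF9363 group), or with CBP300, labelled an EP300 inhibitor, at 10 µg/mL (CBP300 group). For oncostatin M the labels disagree, with 10 µg/mL in the sample fields and 10 ng/mL in the protocol text, and which holds is not known. No group had an inhibitor without the cytokine, no vehicle is named, and all cells were kept in a medium with added L-glutamine, epidermal growth factor, hydrocortisone and serum, so transporter levels were read in glutamine-rich culture. KAT6A, KAT6B and EP300 are enzymes that acetylate histones.

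Several of these carriers work in pairs. SLC3A2 encodes the heavy chain that brings light chains of the SLC7 family to the cell surface, among them SLC7A5, which exchanges large neutral amino acids such as leucine, and SLC7A11, which takes in cystine in exchange for glutamate. SLC7A1 carries arginine and lysine, SLC1A5 and SLC1A4 exchange small neutral amino acids, and SLC38A1 and SLC38A2 bring in glutamine and alanine with sodium. SLC38A9, SLC38A7 and SLC36A1 act at the lysosome. When amino acids run short, the transcription factor ATF4 is known to raise several of these genes, and NRF2 is known to raise SLC7A11. In endothelium, arginine carried by SLC7A1 feeds nitric oxide synthesis.

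The promoters of 4 genes are shown. SLC3A2 and SLC7A5 are a heavy chain and a light chain that both rose with PF9363, and SLC7A1 and SLC38A1, which rose with oncostatin M, were chosen because they are the other tested members with a match to the first pattern below. Each runs 5′ to 3′ from 250 bases before to 50 bases after the RefSeq start (GRCh38.p14). SLC3A2 lies at chr11:62881449-62881748 on the plus strand. On the minus strand are SLC7A5 at chr16:87869458-87869757, SLC7A1 at chr13:29595639-29595938 and SLC38A1 at chr12:46266467-46266766. Capitals mark matches to 3 letter patterns searched on both strands, with no overlap between matches.
SLC3A2: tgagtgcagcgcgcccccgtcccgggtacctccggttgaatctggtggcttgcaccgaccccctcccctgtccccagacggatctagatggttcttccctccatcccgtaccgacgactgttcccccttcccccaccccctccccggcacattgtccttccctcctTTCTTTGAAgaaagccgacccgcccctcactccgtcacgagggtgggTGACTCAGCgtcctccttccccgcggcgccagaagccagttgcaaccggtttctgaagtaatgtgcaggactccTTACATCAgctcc
SLC7A5: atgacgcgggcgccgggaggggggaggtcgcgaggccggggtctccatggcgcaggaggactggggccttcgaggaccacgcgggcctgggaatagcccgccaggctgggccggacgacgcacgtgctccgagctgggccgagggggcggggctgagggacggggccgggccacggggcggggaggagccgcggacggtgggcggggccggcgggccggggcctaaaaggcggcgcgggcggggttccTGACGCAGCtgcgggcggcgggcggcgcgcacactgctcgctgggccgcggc
SLC7A1: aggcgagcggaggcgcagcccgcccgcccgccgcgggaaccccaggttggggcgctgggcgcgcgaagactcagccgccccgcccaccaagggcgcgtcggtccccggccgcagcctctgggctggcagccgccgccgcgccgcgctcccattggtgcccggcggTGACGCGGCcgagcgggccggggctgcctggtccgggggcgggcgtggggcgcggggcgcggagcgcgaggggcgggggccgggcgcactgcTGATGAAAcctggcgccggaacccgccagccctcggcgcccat
SLC38A1: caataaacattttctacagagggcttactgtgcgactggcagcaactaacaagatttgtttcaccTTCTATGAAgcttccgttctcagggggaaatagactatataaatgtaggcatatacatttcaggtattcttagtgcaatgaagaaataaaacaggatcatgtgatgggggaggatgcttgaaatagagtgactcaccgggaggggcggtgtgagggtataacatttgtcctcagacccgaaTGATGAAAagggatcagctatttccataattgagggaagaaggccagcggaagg

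The patterns were TGATGNAA (a form of the ATF4 and C/EBP composite element), TGACNNNGC (the antioxidant element) and TTCNNNGAA (the STAT element). Of the 40 genes, 31 had a promoter in the RefSeq table, and 9 were not matched (SLC3A1, SLC7A11, SLC7A13, SLC7A2, SLC7A3, SLC7A4, SLC1A2, SLC38A3 and SLC43A3). TGATGNAA was found in 4 of the 31 (SLC3A2 on the minus strand 38 bases past the start, SLC7A1, SLC38A1 and SLC1A3) and in 3.67% of all 27305 promoters. TGACNNNGC was found in 5 of 31 (SLC3A2, SLC7A5, SLC7A1, SLC7A6 and SLC7A7) and in 13.6% of all promoters. TTCNNNGAA was found in 3 of 31 (SLC3A2, SLC38A1 and SLC1A3) and in 7.88% of all promoters. SLC3A2 held all 3 patterns, and the windows of SLC1A5 and SLC38A2 held none. A match describes letters only, in a single window per gene, and other starts were not searched. The windows of SLC3A2 and SLC38A1 lie inside the annotated genes (62856102 to 62888875 and 46183063 to 46270017), away from their outermost starts.

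Levels are TPM, the share of transcripts scaled per length and to 1e6 per library. The values fit lengths over all annotated exons of a gene rather than of a single transcript. For SLC3A2 that length was 5178 bases, where the longest transcript has 2222, and for SLC7A5 it was 4764 and 4537. Ratios and ranks between genes therefore depend on this choice of length. Recovered reads per library, in units of 1e6, were 13.4 to 21.1, except 73.3 in CBP300 replicate 2. Nothing in the labels tells whether each replicate was a culture of its own, and the p-values speak only of the spread among the 12 libraries, which may be technical. CT replicate 1 differed from its group by 0.58 and 0.48 (mean absolute log2 per gene) against 0.22 between the other 2 libraries, and PF9363 replicate 3 by 0.46 and 0.39 against 0.25. Levels also leaned on the GC content of the transcript, by 0.22 to 0.6 log2 units per 10 GC points in CT libraries, -0.11 to 0.01 with OSM alone, -0.15 to 0.11 with OSM plus PF9363 and -0.35 to -0.29 with OSM plus CBP300, relative to the mean of all libraries. Values after removal of that trend, and of one on transcript length, are called corrected values below. All 12 endothelial markers were detected, although their summed level was 682 to 729 TPM in CBP300 against 1450 to 1560 in CT, 1310 to 1370 with OSM alone and 1140 to 1210 with OSM plus PF9363. EGFL7 led this sum, with means of 799 TPM in CT and 299 in CBP300. By group means KDR, TEK and ERG were higher in CBP300 than in CT, and the other endothelial markers were lower. Of 8 leukocyte markers only CD14 passed the filter (sums of 45.3 to 60.9 TPM in PF9363 and 4.98 to 18.3 elsewhere), and PTPRC did not exceed 0.0778 TPM in any library. Of 8 fibroblast and mural markers 4 passed the filter, with sums of 15.1 to 16.9 TPM in CT libraries, 10.9 to 12 with OSM alone, 12 to 15.7 with OSM plus PF9363 and 4.24 to 4.92 with OSM plus CBP300. Of 7 epithelial markers 4 passed, led by KRT18, with sums of 795 to 1080 TPM in CT libraries, 769 to 837 with OSM alone, 2690 to 3880 with OSM plus PF9363 and 527 to 537 with OSM plus CBP300, and CDH1 was at 0 in CT, OSM and CBP300. The part of these shifts in the transporter results was not tested.

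Of the 40 transporter genes, 23 reached 1 TPM in at least 3 libraries and were tested with limma on log2(TPM + 1) along with 16848 genes in all. With oncostatin M 16 of the 23 were higher than in CT and 2 were lower. With PF9363 6 were higher and 9 lower than with the cytokine alone, and with CBP300 3 were higher and 3 lower. The shares of all tested genes called higher and lower were 42.1% and 15.2% for OSM against CT, 11.3% and 35.6% for PF9363 against OSM, and 13.8% and 13.3% for CBP300 against OSM. The median log2 change of the 23 was 0.84 in OSM against CT, where the median over all tested genes was 0.31, -0.34 against -0.31 for PF9363, and 0.33 against 0.11 for CBP300. Fewer cells of a kind and less RNA per cell cannot be told apart in these bulk libraries. Changes relative to these all-gene medians of 0.31, -0.31 and 0.11 are given for the leading genes. Values with median-of-ratios scaling, which by construction brings the median gene close to no change, are given for some of the changes whose call or direction differs. The 3 comparisons share the OSM libraries. Every OSM library lay above every CT library for 17 of the 23 genes and below for 2 (48.6% and 18.8% of all tested genes), and PF9363 libraries lay above OSM for 5 and below for 10 (14.4% and 45.5%).

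**Figure D1:**
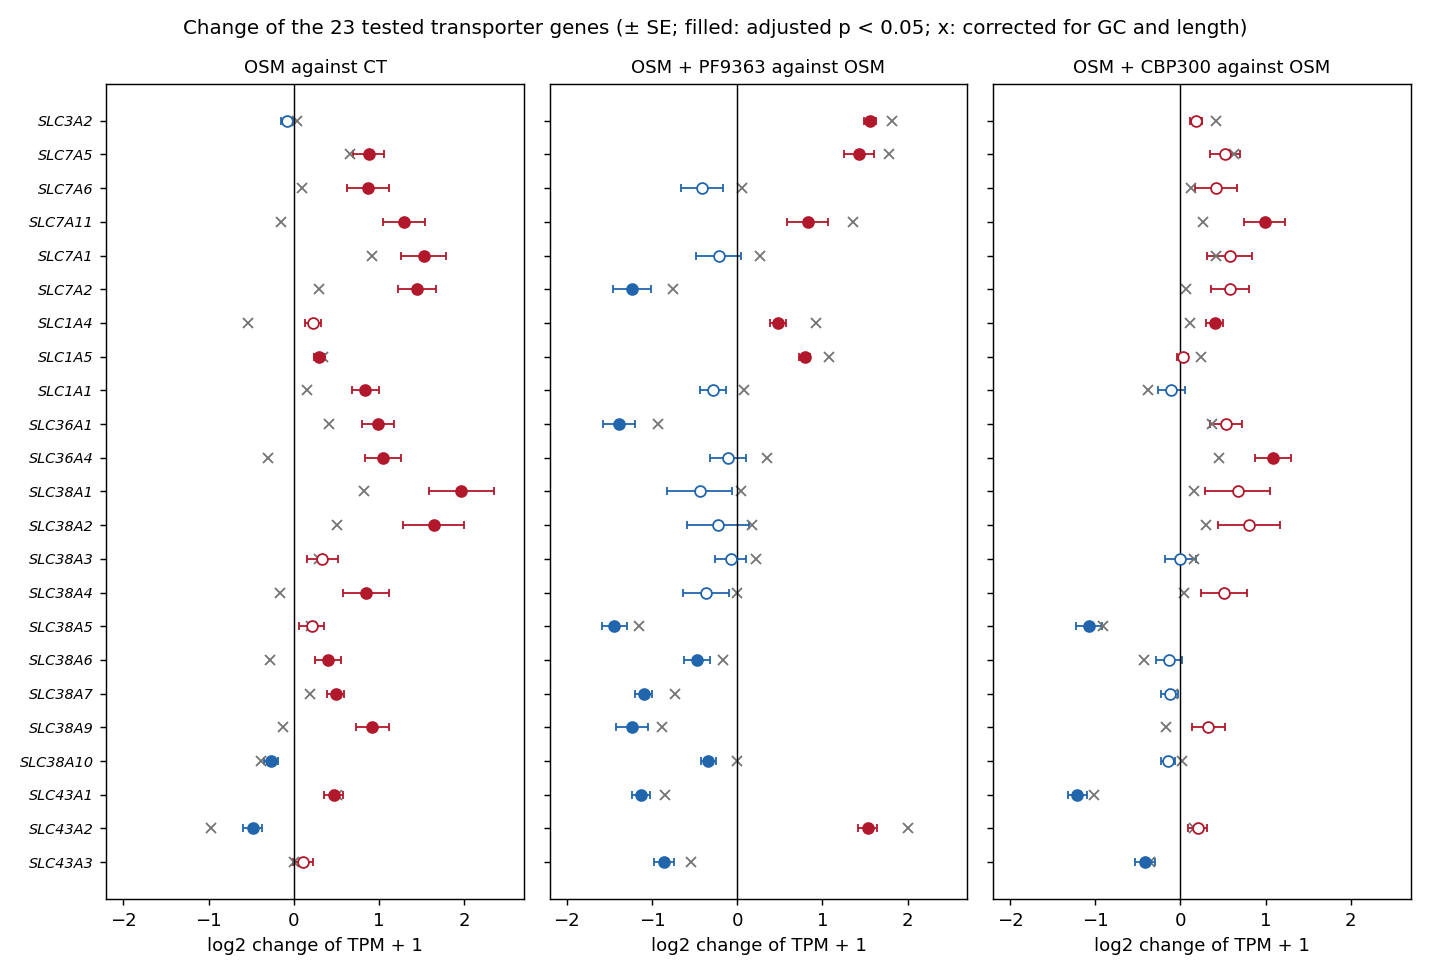
Log2 change of TPM + 1 with its standard error for the 23 tested transporter genes, in OSM against CT, PF9363 against OSM and CBP300 against OSM (3 libraries per group). Filled points passed an adjusted p of 0.05, red is higher and blue lower, and crosses are the corrected values. SLC3A2, SLC7A5 and SLC43A2 lie past 1.4 with PF9363, and in OSM against CT the crosses of SLC38A1, SLC38A2 and SLC7A11 lie well below their points.

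The heavy chain gene SLC3A2 (ENSG00000168003, chromosome 11, 62856102 to 62888875, plus strand, GRCh38) was the gene with the smallest p in PF9363 among the 23. In the order of replicates 1, 2 and 3, here and below, it stood at 100.1, 111.6 and 105.0 TPM in CT libraries, 96.55, 102.6 and 99.61 with OSM alone, 281.9, 294.9 and 306.3 with OSM plus PF9363, and 111.6, 112.0 and 116.5 with OSM plus CBP300. The PF9363 libraries lay far above all others, which spanned a narrow range. Group means of 99.6 ± 3.05 TPM (OSM) and 294.4 ± 12.2 TPM (PF9363; SD, n = 3 each) gave a log2 change of 1.55 (SE 0.07, limma adjusted p = 1.15e-07), or 1.87 relative to the median gene and 1.82 corrected. In OSM against CT the change was -0.08 (limma adjusted p = 0.334), which with median-of-ratios scaling became -0.47 and passed. In CBP300 against OSM it was 0.19 (limma adjusted p = 0.0709), with no overlap between the groups, and the corrected 0.42 passed. SLC3A1, the other heavy chain, which pairs with SLC7A9 in kidney, did not exceed 0.126 TPM.

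SLC7A5 (chromosome 16, 87830023 to 87869488, minus strand), the light chain for leucine and other large neutral amino acids, rose with oncostatin M and rose again with PF9363. It measured 30.86, 51.6 and 45.24 TPM in CT libraries, 70.93, 81.27 and 80.45 with OSM alone, 226.9, 240.9 and 171.2 with OSM plus PF9363, and 109.7, 117.0 and 107.9 with OSM plus CBP300. None of the 4 groups overlapped. The rise with oncostatin M was 0.88 (SE 0.18, limma adjusted p = 0.00336; 0.66 corrected), and the further rise with PF9363 was 1.43 (SE 0.18, limma adjusted p = 9.05e-05; 1.79 corrected). With CBP300 the change from OSM was 0.52 and did not pass (limma adjusted p = 0.0533, and 0.00269 in corrected values). It passed under 9 of the 21 alternatives, among them the one without CT replicate 1 (adjusted p = 0.00804).

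SLC7A6, a light chain that exchanges cationic for neutral amino acids (chromosome 16, 68264516 to 68301823), followed another order. Its levels were 17.45, 35.08 and 30.13 TPM in CT libraries, 54.15, 48.13 and 45.52 with OSM alone, 44.68, 41.99 and 26.02 with OSM plus PF9363, and 64.72, 68.5 and 64.63 with OSM plus CBP300. CBP300 libraries were the highest and PF9363 libraries lay below OSM without overlap. Only the change with oncostatin M passed among the comparisons with OSM (0.87, SE 0.25, limma adjusted p = 0.0129), and it was 0.09 and no longer called in corrected values. Exons of SLC7A6OS on the opposite strand cover 44.4% of the SLC7A6 exons, and the sources do not say whether counting used strand, so reads of these genes may be mixed.

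SLC7A11 (chromosome 4, 138164097 to 138242349, minus strand), the cystine carrier, was far scarcer than SLC7A5. It stood at 1.928, 3.274 and 3.14 TPM in CT libraries, 9.9, 7.437 and 7.306 with OSM alone, 20.19, 17.57 and 9.843 with OSM plus PF9363, and 17.34, 18.37 and 15.78 with OSM plus CBP300. It was the only tested transporter called higher in all 3 comparisons, and only PF9363 replicate 3 reached down into the OSM range. The change was 1.29 with oncostatin M (SE 0.24, limma adjusted p = 0.00255), 0.83 with PF9363 (limma adjusted p = 0.0167) and 0.99 with CBP300 (limma adjusted p = 0.0138). Its transcript has a GC content of 35.4%, low for this family, and the corrected changes were -0.15 (adjusted p = 0.326), 1.36 (adjusted p = 4.71e-06) and 0.27 (adjusted p = 0.122), so that only the rise with PF9363 passed in both forms. The call with PF9363 was lost without OSM replicate 2 or 3 or PF9363 replicate 1 or 2 (changes of 0.63 to 0.77, adjusted p of 0.0554 to 0.0614), and that with CBP300 without OSM replicate 2 or 3 or CBP300 replicate 2 (0.92 to 0.94, adjusted p of 0.0526 to 0.055). Exons of SLC7A11-AS1 on the opposite strand cover 9% of its own.

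Heavy and light chains were also set side by side. The light chains that pair with SLC3A2 (SLC7A5, SLC7A6, SLC7A7, SLC7A8, SLC7A10 and SLC7A11) summed to 50.75, 90.36 and 78.87 TPM in CT libraries, 135.4, 137.2 and 133.8 with OSM alone, 292.6, 301.3 and 207.9 with OSM plus PF9363, and 191.9, 204.2 and 188.5 with OSM plus CBP300. Per TPM of SLC3A2 that was 0.69 ± 0.161 in CT libraries, 1.36 ± 0.0363 with OSM alone, 0.913 ± 0.203 with OSM plus PF9363 and 1.72 ± 0.102 with OSM plus CBP300 (mean ± SD, n = 3, no test). The ratio was above 1.3 in every OSM and CBP300 library, while CT libraries were at 0.81 or less and PF9363 replicate 3 stood at 0.679 beside 1.04 and 1.02. SLC7A5 made up 58.4% ± 2.07 of the light chain sum in CT, 57.2% ± 4.23 in OSM and 57.2% ± 0.0751 in CBP300, but 79.95% ± 2.4 in PF9363. In uncorrected TPM, light chain RNA in OSM and CBP300 was thus high relative to the heavy chain, and in PF9363 both were high. The ratio was not computed from corrected values. There SLC3A2, SLC7A5, SLC7A6 and SLC7A11 changed by 0.04, 0.66, 0.09 and -0.15 in OSM against CT. In CBP300 against OSM their corrected changes were 0.42, 0.625, 0.12 and 0.27, so the heavy chain rose there as well. The size of the ratio also depends on the lengths behind the TPM. SLC7A6, whose reads may be mixed with those of SLC7A6OS, enters the light chain sum, the ratio and the shares.

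**Figure D2:**
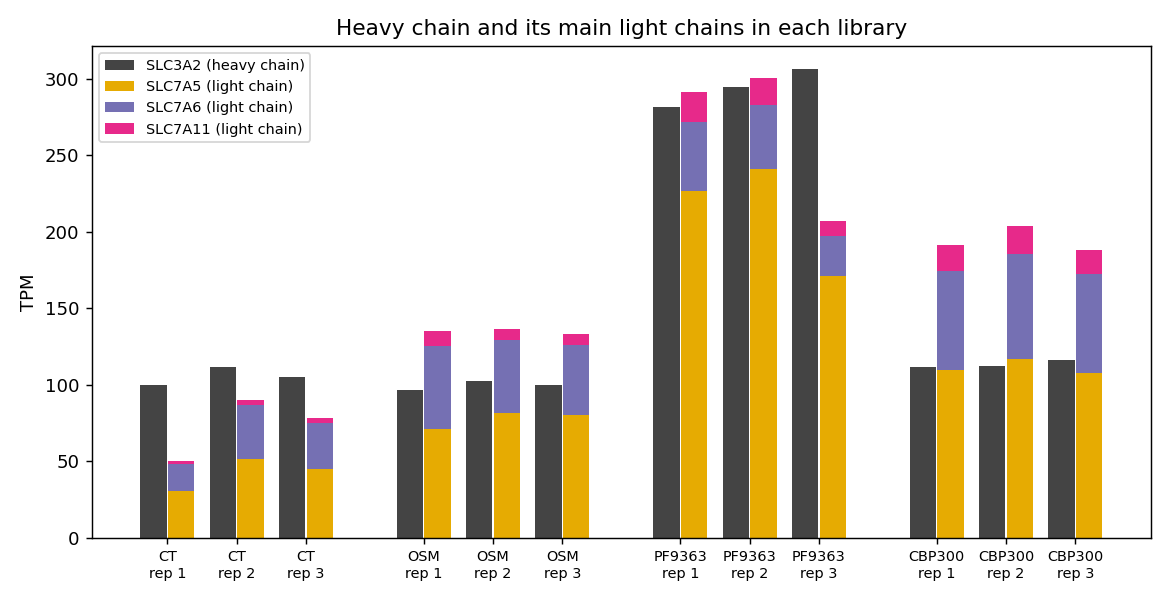
TPM of SLC3A2 (dark bars) beside the stacked TPM of SLC7A5, SLC7A6 and SLC7A11 in each of the 12 libraries. The heavy chain stays between 96.55 and 116.5 TPM outside PF9363, and SLC7A5 fills most of the light chain bar in PF9363.

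Among the cationic carriers, SLC7A1, the main arginine importer (chromosome 13, 29509410 to 29595688, minus strand), rose with oncostatin M. It measured 18.24, 36.18 and 29.99 TPM in CT libraries, 86.89, 76.92 and 75.83 with OSM alone, 85.16, 82.8 and 45.35 with OSM plus PF9363, and 115.4, 128.6 and 115.2 with OSM plus CBP300. PF9363 replicate 3 lay apart from its group, whose other 2 libraries were in the OSM range. The rise was 1.52 (SE 0.26, limma adjusted p = 0.00195; 0.92 corrected), and the changes from OSM were -0.22 with PF9363 (limma adjusted p = 0.527; 0.27 and not called in corrected values) and 0.58 with CBP300 (limma adjusted p = 0.121). CBP300 libraries lay above OSM without overlap, and that change passed in corrected values (0.42, adjusted p = 0.0405) and without CT replicate 1 (adjusted p = 0.0434).

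SLC7A2, a second arginine carrier that is induced in inflamed tissue, behaved differently under PF9363. It stood at 2.795, 4.604 and 4.005 TPM in CT libraries, 13.86, 11.7 and 10.36 with OSM alone, 5.738, 5.419 and 2.834 with OSM plus PF9363, and 18.76, 19.45 and 16.78 with OSM plus CBP300. PF9363 libraries had values close to those of CT. The gene rose by 1.44 with oncostatin M (SE 0.22, limma adjusted p = 0.0012; 0.30 corrected) and fell by 1.23 with PF9363 relative to OSM (limma adjusted p = 0.00102; -0.75 corrected), while the difference between PF9363 and CT did not pass (0.21, limma adjusted p = 0.432; -0.46 and called in corrected values). With CBP300 the change from OSM was 0.58 (limma adjusted p = 0.0734). It passed under 5 of the 21 alternatives, among them median-of-ratios scaling (adjusted p = 0.0419) and the fits without CT replicate 1 (0.0385) or PF9363 replicate 3 (0.0196), while in corrected values it was 0.07 and not called.

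SLC1A5, the glutamine exchanger (chromosome 19, 46774883 to 46788594, minus strand), had the highest TPM of the members in CT, a rank that depends on the lengths used. It measured 199.0, 190.2 and 192.2 TPM in CT libraries, 225.7, 243.5 and 246.8 with OSM alone, 409.6, 434.6 and 398.6 with OSM plus PF9363, and 239.5, 250.5 and 240.0 with OSM plus CBP300. The PF9363 libraries again stood clear of the rest, and CBP300 overlapped OSM. With CBP300 the change from OSM was 0.03 (limma adjusted p = 0.767), and 0.245 and called in corrected values (adjusted p = 0.00457). The rise with PF9363 was 0.79 (SE 0.07, limma adjusted p = 5.68e-06), or 1.11 relative to the median gene and 1.07 corrected. The rise with oncostatin M was 0.30 (limma adjusted p = 0.00458), but with median-of-ratios scaling the change was -0.10 and not called. An antisense gene, AC008622.2, shares 23.4% of the SLC1A5 exons.

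SLC1A4, its relative for alanine, serine and cysteine, stood at 24.23, 27.96 and 26.97 TPM in CT libraries, 32.71, 30.27 and 30.18 with OSM alone, 46.81, 45.37 and 38.9 with OSM plus PF9363, and 39.28, 41.51 and 43.14 with OSM plus CBP300. Both inhibitor groups lay above OSM without overlap. The rise was 0.48 with PF9363 (SE 0.10, limma adjusted p = 0.00205; 0.93 corrected) and 0.40 with CBP300 (limma adjusted p = 0.0123). The latter was 0.11 and not called in corrected values, and was lost without OSM replicate 2 or 3 or CBP300 replicate 3 (adjusted p of 0.0508 to 0.0516). In OSM against CT the change of 0.23 did not pass (limma adjusted p = 0.0619), and in corrected values it was -0.54 and called lower. SLC1A1, a glutamate carrier, averaged 0.266 ± 0.168 TPM in CT libraries, 1.26 ± 0.303 with OSM alone, 0.855 ± 0.212 with OSM plus PF9363 and 1.09 ± 0.166 with OSM plus CBP300, rose with oncostatin M by 0.84 (limma adjusted p = 0.00255; 0.16 and not called in corrected values), and rested on 3 reads in CT replicate 1.

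**Figure D3:**
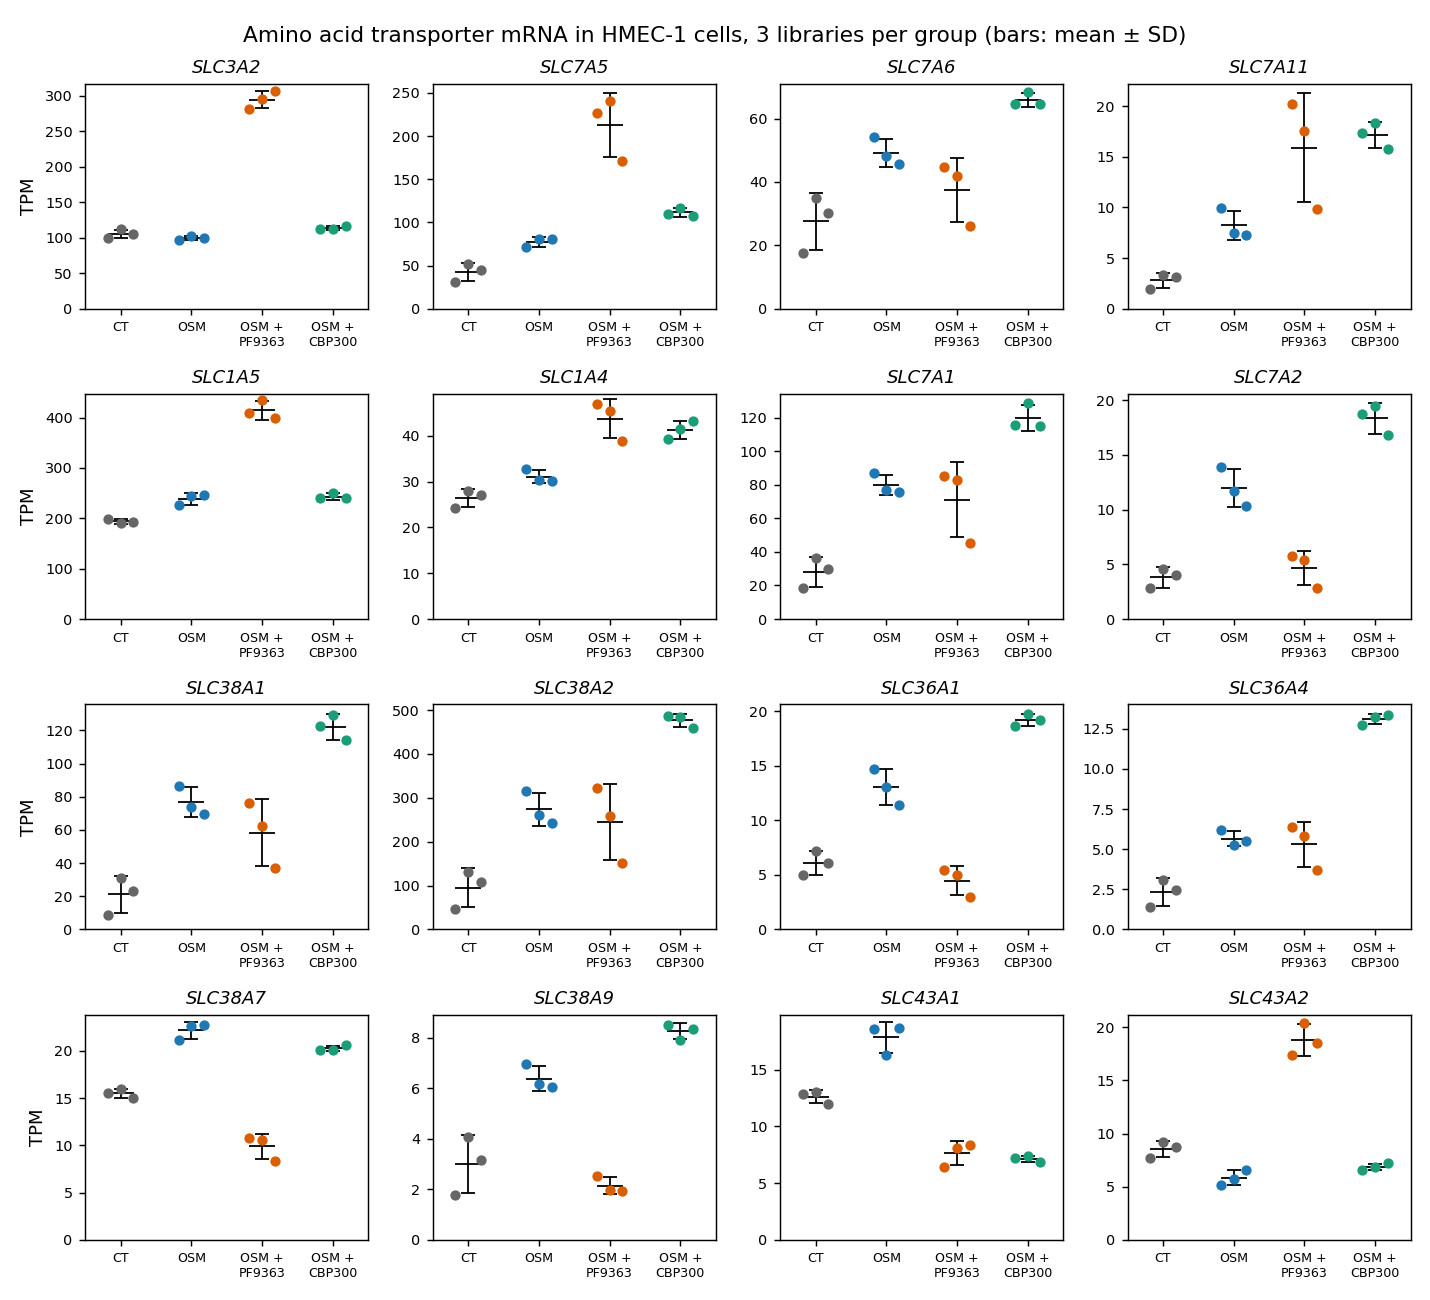
TPM of 16 transporter genes in each library (points), with the mean and SD of the 3 libraries per group (bars). SLC3A2, SLC7A5, SLC1A5 and SLC43A2 are highest in PF9363, SLC38A1, SLC38A2, SLC36A1 and SLC36A4 are highest in CBP300, and SLC38A7 and SLC38A9 are lowest in PF9363.

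SLC38A2, the sodium-coupled glutamine and alanine carrier that is raised in amino acid shortage (chromosome 12, 46358189 to 46372867, minus strand), had the highest TPM of the members in OSM and in CBP300. It stood at 45.47, 131.4 and 108.0 TPM in CT libraries, 316.4, 260.6 and 243.6 with OSM alone, 322.5, 258.1 and 151.2 with OSM plus PF9363, and 486.0, 483.4 and 460.0 with OSM plus CBP300. The CT libraries spanned a wide range, with replicate 1 lowest, and PF9363 spanned the OSM range and below. The rise with oncostatin M was 1.64 (SE 0.36, limma adjusted p = 0.00438), 1.18 without CT replicate 1 and 0.51 in corrected values, and it passed in each form. CBP300 libraries lay above OSM without overlap, but the change of 0.81 did not pass (limma adjusted p = 0.116; 0.0186 without CT replicate 1). In corrected values that change was 0.30 and not called (limma adjusted p = 0.0838).

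SLC38A1, the neighbouring gene on chromosome 12 (46183063 to 46270017) and a carrier of much the same substrates, had the largest log2(TPM + 1) change of the 23 with oncostatin M, although in corrected values SLC7A1 was ahead (0.92 against 0.82) and the ratio of means was larger for the scarce SLC1A1 (4.74 against 3.63). It measured 8.809, 31.16 and 23.37 TPM in CT libraries, 86.7, 73.52 and 69.35 with OSM alone, 76.34, 62.04 and 36.72 with OSM plus PF9363, and 122.6, 129.3 and 114.2 with OSM plus CBP300. The groups kept the order seen for SLC38A2, and again CT replicate 1 and PF9363 replicate 3 were the lowest of their groups. The rise was 1.97 (SE 0.38, limma adjusted p = 0.0029), 1.66 relative to the median gene and 0.82 corrected. With PF9363 the change from OSM was -0.44 (limma adjusted p = 0.372; 0.05 corrected) and with CBP300 0.67 (limma adjusted p = 0.204; 0.0365 without CT replicate 1). The corrected change with CBP300 was 0.16 and not called (limma adjusted p = 0.461). SLC38A4, another SLC38 gene in this stretch of chromosome 12, was low, at 0.435 ± 0.384 TPM in CT libraries, 1.55 ± 0.404 with OSM alone, 1.04 ± 0.685 with OSM plus PF9363 and 2.62 ± 0.427 with OSM plus CBP300. Its rise with oncostatin M (0.85, limma adjusted p = 0.0209) rested on 3 reads in CT replicate 1, was lost without CT replicate 1 or 3 or OSM replicate 1, and was -0.16 in corrected values.

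The lysosomal members SLC38A7, SLC38A9 and SLC36A1 were each called higher with oncostatin M and lower with PF9363 than with oncostatin M alone. SLC38A9, an arginine sensor on the lysosome that signals to the growth regulator mTORC1 (chromosome 5, 55625845 to 55773194), stood at 1.784, 4.064 and 3.157 TPM in CT libraries, 6.946, 6.144 and 6.027 with OSM alone, 2.512, 1.988 and 1.915 with OSM plus PF9363, and 8.513, 7.894 and 8.329 with OSM plus CBP300. PF9363 and CT libraries shared a range, and both lay below OSM. The fall with PF9363 from OSM was -1.24 (SE 0.19, limma adjusted p = 0.000371; -0.88 corrected). The rise with oncostatin M, 0.92 (limma adjusted p = 0.00346), was -0.12 in corrected values. Between PF9363 and CT the SLC38A9 change was -0.312 and not called (limma adjusted p = 0.184). It was called lower with median-of-ratios scaling (-0.333, limma adjusted p = 0.0499) and without CT replicate 1 (-0.55, limma adjusted p = 0.00478). In corrected values it was -1.004 and also called lower (limma adjusted p = 1.62e-05).

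SLC36A1, a proton-coupled exporter of small amino acids, measured 5.016, 7.191 and 6.091 TPM in CT libraries, 14.69, 13.07 and 11.41 with OSM alone, 5.476, 5.033 and 2.942 with OSM plus PF9363, and 18.68, 19.8 and 19.23 with OSM plus CBP300. It had the same order of groups as SLC38A9. It rose by 0.99 with oncostatin M (SE 0.19, limma adjusted p = 0.00263; 0.41 corrected) and changed by -1.38 with PF9363 (SE 0.19, limma adjusted p = 0.00016; -0.93 corrected). With CBP300 the SLC36A1 change from OSM was 0.53 (limma adjusted p = 0.0579), and was called with median-of-ratios scaling (0.43) and in corrected values (0.37). Between PF9363 and CT it was -0.39 (limma adjusted p = 0.0966), and was called lower in both of these forms (-0.43 and -0.52). SLC38A7, which carries glutamine out of the lysosome, stood at 15.5, 15.95 and 15.02 TPM in CT libraries, 21.13, 22.68 and 22.73 with OSM alone, 10.73, 10.6 and 8.386 with OSM plus PF9363, and 20.09, 20.14 and 20.59 with OSM plus CBP300. Here PF9363 libraries lay below CT without overlap, and the change was called with all libraries too (-0.60, limma adjusted p = 0.000515; -0.54 corrected). The change from OSM was -1.10 (SE 0.10, limma adjusted p = 1.02e-05; -0.72 corrected), and the rise with oncostatin M, 0.49 (limma adjusted p = 0.00328), was 0.12 with median-of-ratios scaling and 0.19 corrected, called in neither. SLC36A4, another gene of the SLC36 family, measured 1.375, 3.087 and 2.461 TPM in CT libraries, 6.208, 5.268 and 5.499 with OSM alone, 6.363, 5.798 and 3.716 with OSM plus PF9363, and 12.74, 13.2 and 13.35 with OSM plus CBP300. The CBP300 libraries stood far above all other libraries, and the rise from OSM was 1.08 (SE 0.21, limma adjusted p = 0.00416; 0.45 corrected). With PF9363 the change from OSM was -0.105 (limma adjusted p = 0.71), and 0.35 and called higher in corrected values (adjusted p = 0.0181). The rise of SLC36A4 with oncostatin M (1.04, limma adjusted p = 0.00319) became -0.30 and was called lower in corrected values.

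Of the other SLC38 genes, SLC38A5, a glutamine carrier of the proton-exchanging kind, fell with both inhibitors. Its levels were 2.057, 1.998 and 1.629 TPM in CT libraries, 1.77, 2.485 and 2.851 with OSM alone, 0.1532, 0.3046 and 0.2363 with OSM plus PF9363, and 0.4409, 0.6425 and 0.685 with OSM plus CBP300. Each inhibitor library lay below each CT and OSM library. The changes from OSM were -1.44 with PF9363 (limma adjusted p = 2.31e-05; -1.15 corrected) and -1.07 with CBP300 (limma adjusted p = 0.000595; -0.91 corrected), on a scale that compresses such low levels. SLC38A10 stood at 69.07, 77.32 and 77.57 TPM in CT libraries, 58.26, 63.27 and 64.35 with OSM alone, 45.35, 51.08 and 50.16 with OSM plus PF9363, and 54.11, 57.15 and 56.7 with OSM plus CBP300. Its fall with oncostatin M was -0.26 (limma adjusted p = 0.0199, lost without CT replicate 2 or 3 or OSM replicate 1). Its change with PF9363, -0.34 (limma adjusted p = 0.00681), was 0.03 with median-of-ratios scaling and was not called there or in corrected values (adjusted p = 0.977). SLC38A6 averaged 2.37 ± 0.651 TPM in CT libraries, 3.42 ± 0.45 with OSM alone, 2.18 ± 0.214 with OSM plus PF9363 and 3.03 ± 0.366 with OSM plus CBP300, with a change of 0.40 in OSM against CT (limma adjusted p = 0.0429) that passed under 5 of the 20 alternatives run for it and was -0.28 in corrected values. SLC38A3, another glutamine carrier, averaged 1.78 ± 0.431, 2.47 ± 0.158, 2.31 ± 0.388 and 2.52 ± 0.831 TPM in CT, OSM, PF9363 and CBP300 and was called in none of the 6 comparisons, although its corrected changes from CT of 0.52 with PF9363 and 0.45 with CBP300 passed.

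The SLC43 genes, facilitators that need no sodium, went opposite ways under PF9363. SLC43A2, a carrier of branched-chain amino acids, phenylalanine and methionine (chromosome 17, 1569267 to 1628886, minus strand), stood at 7.733, 9.201 and 8.768 TPM in CT libraries, 5.172, 5.764 and 6.603 with OSM alone, 17.44, 20.42 and 18.49 with OSM plus PF9363, and 6.564, 6.83 and 7.188 with OSM plus CBP300. The PF9363 libraries were the highest by a wide margin. It fell by 0.49 with oncostatin M (SE 0.11, limma adjusted p = 0.00524; -0.97 corrected) and rose by 1.53 with PF9363 (SE 0.11, limma adjusted p = 2.25e-06; 2.0 corrected), and was the only tested member called lower with the cytokine and higher with an inhibitor. SLC43A1, a carrier of the same amino acids (chromosome 11, 57484534 to 57515786), measured 12.85, 13.05 and 12 TPM in CT libraries, 18.58, 16.3 and 18.7 with OSM alone, 6.461, 8.099 and 8.401 with OSM plus PF9363, and 7.185, 7.351 and 6.869 with OSM plus CBP300. Both inhibitor groups lay below CT and OSM without overlap. The changes from OSM were -1.13 with PF9363 (limma adjusted p = 1.57e-05; -0.85 corrected) and -1.21 with CBP300 (limma adjusted p = 3.62e-05; -1.01 corrected), while the rise of 0.47 with oncostatin M (limma adjusted p = 0.00562) was 0.10 and not called with median-of-ratios scaling. SLC43A3, which carries purine nucleobases rather than amino acids, stood at 10.66, 8.768 and 9.636 TPM in CT libraries, 10.57, 11.01 and 9.858 with OSM alone, 5.271, 4.606 and 6.179 with OSM plus PF9363, and 8.079, 7.464 and 7.19 with OSM plus CBP300. It changed by -0.86 with PF9363 (limma adjusted p = 0.000164; -0.54 corrected) and by -0.42 with CBP300 (limma adjusted p = 0.024), and the latter was lost under 7 alternatives, the corrected values among them (-0.36, adjusted p = 0.0702). AP000781.2 on the same strand shares 29.9% of its exons.

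The inhibitor groups were also compared directly, although the inhibitors were given at different doses. With PF9363, 4 of the 23 genes were higher than with CBP300 and 11 were lower, against 14.5% and 45.1% of all tested genes, and the median gene differed by -0.41. The 4 were SLC3A2 (1.37, SE 0.07, limma adjusted p = 2.06e-07), SLC43A2 (1.33), SLC7A5 (0.91) and SLC1A5 (0.77), and all 4 stayed called in each alternative. Among those lower, SLC36A1 (-1.92), SLC7A2 (-1.81), SLC38A9 (-1.56) and SLC38A7 (-0.97) were also called in each alternative. SLC7A1 (-0.80), SLC7A6 (-0.83), SLC38A1 (-1.11), SLC38A2 (-1.03), SLC38A4 (-0.87), SLC36A4 (-1.19) and SLC43A3 (-0.44) were not called in corrected values. Corrected calls were 6 higher and 4 lower (27.7% and 27.9% of all tested genes), and with median-of-ratios scaling 6 and 5 (26.1% and 27.9%). PF9363 libraries lay above all CBP300 libraries for 4 genes and below for 14 (17.5% and 53.6%). The difference in SLC7A11 did not pass (-0.16, limma adjusted p = 0.586), but in corrected values it was higher with PF9363 by 1.10.

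Against CT, 11 of the 23 genes were higher and 5 lower with PF9363 (27.9% and 28.4% of all tested genes), and 15 higher and 5 lower with CBP300 (48.1% and 22.7%). Without overlap between groups, PF9363 lay above CT for 11 and below for 5 (24.9% and 28.5%), and CBP300 for 16 and 5 (51% and 24.9%). Corrected calls were 10 and 9 with PF9363 (32.2% and 31%) and 10 and 8 with CBP300 (32.4% and 32%), and calls with median-of-ratios scaling were 12 and 7 (31.9% and 29.1%) and 12 and 6 (35.9% and 35.3%). SLC7A5 rose 5.0-fold by its mean with PF9363 (log2 change 2.31, limma adjusted p = 2.44e-06) and 2.62-fold with CBP300 (1.40, limma adjusted p = 9.02e-05). SLC38A1 rose by 1.53 and 2.64, and SLC38A2 by 1.42 and 2.45, in PF9363 and CBP300. In corrected values these 4 changes were 0.87, 0.98, 0.69 and 0.80, all called. SLC7A11 rose by 2.12 with PF9363 (limma adjusted p = 3.84e-05; 1.22 corrected and called) and by 2.28 with CBP300 (limma adjusted p = 3.72e-05; 0.12 corrected and not called). SLC38A5, SLC38A10, SLC43A1 and SLC43A3 were lower than CT with both inhibitors. For SLC43A3 with CBP300 the call (-0.32, limma adjusted p = 0.0321) was lost without CT replicate 1 or 3 or CBP300 replicate 2 or 3.

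Summed over the 40 genes, the transporters took 686.5 ± 97.8 TPM in CT libraries, 1102 ± 42.03 with OSM alone, 1508 ± 185 with OSM plus PF9363 and 1478 ± 37.99 with OSM plus CBP300 (mean ± SD, n = 3, no test). In uncorrected TPM the sums in PF9363 and CBP300 were alike in size but not in makeup. SLC38A2 took 32.2% ± 0.699 of the sum in CBP300 and 24.8% ± 2.48 in OSM, against 15.9% ± 4.06 in PF9363 and 13.4% ± 4.87 in CT. PF9363 replicate 3 was the lowest of its group, at 11.68%. Sums and shares were not computed from corrected values, where SLC38A2 in PF9363 against CBP300 changed by -0.12 and was not called (limma adjusted p = 0.428). CT replicate 1, with 579.2 TPM and 7.85% from SLC38A2, was the lowest of all libraries in both.

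Changes of these genes went along with the GC content of their transcripts in some comparisons. Across the 23 genes, which share the same libraries and are not replicates, Pearson's r between GC content and change was -0.64 (Spearman's rho -0.60) for OSM against CT, -0.57 (-0.57) for CBP300 against OSM and 0.22 (0.21) for PF9363 against OSM. In corrected values r was 0.10, -0.08 and 0.17. SLC38A2 (38.1% GC), SLC38A1 (41.3%), SLC36A4 (35.0%) and SLC7A11 (35.4%) are among the AT-rich members, and SLC3A2 (57.4%), SLC43A2 (58.5%), SLC7A5 (61.1%) and SLC1A5 (61.3%) are GC-rich. In corrected values 8 genes were higher and 4 lower in OSM against CT (23.7% and 27.3% of all tested genes), 7 and 7 in PF9363 against OSM (27.7% and 24.6%), and 6 and 2 in CBP300 against OSM (17.4% and 14.4%). The 4 called lower with oncostatin M were SLC1A4, SLC36A4, SLC38A10 and SLC43A2. With median-of-ratios scaling the counts were 12 and 3 (29.9% and 27.9%), 6 and 7 (22% and 22.4%), and 6 and 2 (16.3% and 14.2%).

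**Figure D4:**
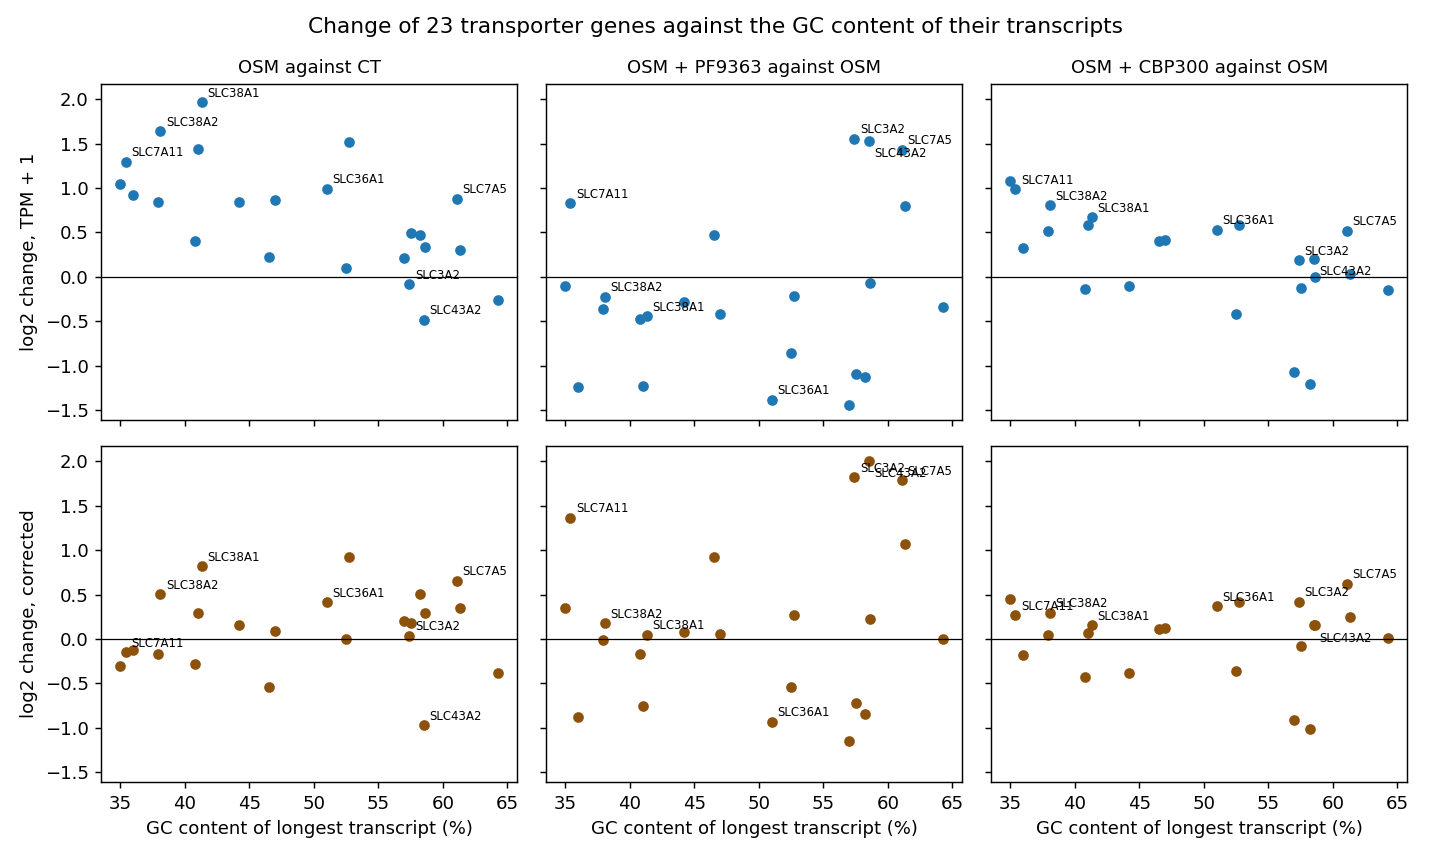
Log2 change of the 23 tested transporter genes against the GC content of the longest transcript of each gene, before (top) and after (bottom) removal of the trend on GC content and length, for 3 comparisons. In OSM against CT the top panel slopes down (r = -0.64) and the bottom panel does not (r = 0.10), while SLC3A2, SLC7A5 and SLC43A2 stay high with PF9363 in both rows.

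In CBP300 against OSM, few genes passed although many groups did not overlap. The CBP300 libraries lay above all OSM libraries for 13 of the 23 genes and below them for 5, which was so for 41% and 25.5% of all tested genes. The count of genes called higher was 3 with all libraries, 11 without CT replicate 1, 6 without PF9363 replicate 3, 13 without both of these, and 1 without OSM replicate 2 or 3. CT and PF9363 libraries enter this comparison only through the shared estimate of the spread. SLC36A4, SLC38A5 and SLC43A1 were called in the same direction in each alternative that tested them.

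The remaining 17 genes stayed below the filter. SLC7A13, SLC36A2, SLC36A3 and SLC38A11 were at 0 in all 12 libraries, where 3 reads of SLC38A11 would have given 0.0279 to 0.149 TPM and 3 reads of SLC7A13 0.069 to 0.368 TPM. The highest single values among the others were 0.590 TPM for SLC1A3, a glutamate carrier of glia, 0.500 for SLC7A4, 0.444 for the light chain SLC7A8 and 0.407 for the light chain SLC7A7. These 4 peaks were all in PF9363 libraries. SLC1A2, the chief glutamate carrier of brain, was detected in 1 library at 0.009 TPM. Such floors cover counting error only.

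Other genes of amino acid handling were read from 5 lists. The shares of all tested genes called higher and lower, against which the counts of each list are read, were 42.1% and 15.2% in OSM against CT, 11.3% and 35.6% in PF9363 against OSM, and 13.8% and 13.3% in CBP300 against OSM (23.7% and 27.3%, 27.7% and 24.6%, and 17.4% and 14.4% in corrected values). Of 26 other amino acid response genes (ATF4 and its targets), 13 were higher and 5 lower with oncostatin M (42.1% and 15.2% of all genes), 8 and 7 with PF9363 relative to OSM (11.3% and 35.6%), and 4 and 5 with CBP300 (13.8% and 13.3%), with median changes of 0.29, 0.01 and 0.15 against 0.31, -0.31 and 0.11 over all genes. In corrected values the counts were 11 and 3, 13 and 5, and 8 and 6. ATF3, a stress-induced transcription factor, rose from 6.23 ± 0.235 to 19.3 ± 1.05 TPM with PF9363 and to 12.2 ± 0.783 with CBP300. STC2, a secreted glycoprotein, rose with oncostatin M from 12.7 ± 1.90 to 36.4 ± 1.62 TPM and was at 18.4 ± 1.08 with CBP300. PYCR1, an enzyme of proline synthesis, fell from 82.7 ± 6.36 TPM in OSM to 38.4 ± 4.13 with PF9363 and 39.6 ± 0.553 with CBP300. MTHFD2, a mitochondrial folate enzyme, rose with oncostatin M from 44.7 ± 18.5 to 107.6 ± 8.01 TPM, and VLDLR, a lipoprotein receptor, from 1.40 ± 0.535 to 8.22 ± 0.647 TPM, the latter falling to 3.31 ± 0.665 with PF9363.

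Another list held 16 genes of glutathione metabolism and redox control, among them the regulators NFE2L2 and KEAP1 and the antisense gene SLC7A11-AS1. Of the 14 tested, 7 were higher and 3 lower with oncostatin M (42.1% and 15.2% of all genes), 5 and 3 with PF9363 (11.3% and 35.6%), and 3 and 1 with CBP300 (13.8% and 13.3%). The medians were 0.59, 0.43 and 0.31. In corrected values the counts were 5 and 4, 9 and 3, and 6 and 1, and the medians 0.27, 0.81 and 0.32. GCLM, the modifier subunit of the first enzyme of glutathione synthesis, was called higher in all 3, from 6.35 ± 3.23 TPM in CT to 17.8 ± 2.93 with OSM alone, 44.2 ± 16.03 with OSM plus PF9363 and 46.6 ± 0.731 with OSM plus CBP300. SLC7A11 was so before correction only. In corrected values GCLM rose by 0.28, 1.62 and 0.82, called each time, while of the SLC7A11 changes only that with PF9363 was called. GCLC, the catalytic subunit, rose from 3.48 ± 2.10 to 9.01 ± 0.708 TPM with oncostatin M and to 18.9 ± 0.539 with CBP300. GGT5, which splits extracellular glutathione conjugates, went from 28.03 ± 1.29 TPM in OSM up to 89.0 ± 9.54 with PF9363 and down to 3.66 ± 0.196 with CBP300. GGT7 fell with PF9363 from 15.2 ± 0.251 to 0.875 ± 0.314 TPM. NFE2L2, the gene of NRF2, rose with oncostatin M from 41.8 ± 21.2 to 105.2 ± 8.06 TPM.

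Of 14 glutamine and glutamate enzymes, 10 were higher and none lower with oncostatin M (42.1% and 15.2% of all genes), none higher and 5 lower with PF9363 (11.3% and 35.6%), and 4 higher and none lower with CBP300 (13.8% and 13.3%). The share lower with PF9363 was close to that of all genes. The medians were 0.65, -0.12 and 0.37. PSAT1, a transaminase of serine synthesis, rose with oncostatin M from 55.6 ± 22.9 to 128.3 ± 2.12 TPM. GOT1 and GPT2, transaminases of aspartate and alanine, fell with PF9363, from 65.4 ± 4.61 to 33.2 ± 1.86 TPM and from 18.4 ± 0.712 to 8.77 ± 0.836 TPM. In corrected values the counts were 6 and 3, 4 and 4, and 5 and 0. Of 27 tested genes of amino acid sensing upstream of mTORC1, 9 were higher and 6 lower with oncostatin M (42.1% and 15.2% of all genes), 5 and 11 with PF9363 (11.3% and 35.6%), and 5 and 4 with CBP300 (13.8% and 13.3%). The medians were 0.12, -0.18 and 0.22, and the corrected counts were 3 and 12, 11 and 9, and 9 and 1. FNIP1, a partner of folliculin, rose with oncostatin M from 3.59 ± 2.04 to 11.3 ± 1.18 TPM (log2 change 1.53, 0.32 corrected) and to 29.06 ± 0.929 with CBP300. LAMTOR4, a subunit of the Ragulator complex at the lysosome, fell with oncostatin M from 231.9 ± 92.04 to 93.55 ± 8.60 TPM (-1.24, -0.74 corrected) and again with PF9363 to 49.35 ± 12.98 TPM. NPRL2 and WDR59, members of the GATOR complexes, fell with PF9363 from 31.8 ± 3.91 to 14.4 ± 1.89 TPM and from 15.9 ± 0.699 to 6.603 ± 0.422 TPM.

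Of 10 tested carriers outside these families, 3 were higher and 2 lower with oncostatin M (42.1% and 15.2% of all genes), 5 and 4 with PF9363 (11.3% and 35.6%), and 4 and 1 with CBP300 (13.8% and 13.3%). The medians were 0.08, -0.03 and 0.15, and in corrected values -0.03, 0.30 and 0.14 with counts of 2 and 2, 5 and 3, and 4 and 2. SLC6A6, the taurine carrier, rose from 10.3 ± 4.95 to 65.9 ± 4.71 TPM with oncostatin M (log2 change 2.67, limma adjusted p = 0.000317; 2.05 corrected), more than any of the 23. SLC6A8, the creatine carrier, rose from 30.95 ± 0.548 TPM in OSM to 73.2 ± 5.34 with PF9363 and 41.3 ± 1.67 with CBP300. CTNS, which carries cystine out of the lysosome, fell with PF9363 from 40.8 ± 0.655 to 19.4 ± 0.845 TPM. SLC38A7, SLC38A9 and SLC36A1 were called lower there too, as were 35.6% of all tested genes, and no lysosomal set was tested. SLC17A5, a lysosomal sialic acid carrier, rose with CBP300 from 13.1 ± 0.660 to 21.3 ± 0.104 TPM.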

How the data were processed

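RNA was sequenced from 12 libraries of HMEC-1 cells in 4 groups of 3, with stranded poly(A) libraries and paired-end reads per the labels' protocols. The deposited values are TPM per gene, made by the authors. Trimmomatic 0.40, Bowtie2, RSEM 1.3.3 and GRCh38 are named, per the submitters' processing notes, without roles, and the annotation, strand setting and filters are not given in the sources used here. The 3 PF9363 columns sum to 397, 430 and 178 below 1e6. From the TPM and GENCODE 29 exon lengths, whole reads were recovered for 16843 of the 16848 tested genes (99.97%, tolerance 0.001), which gave the depth. Precision at low levels is limited by these reads.

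Members were matched by symbol, and the members and gene lists were chosen with earlier results of these data known. The 16848 genes that reached 1 TPM in 3 or more libraries were fitted on log2(TPM + 1) with limma 3.58.1 (R 4.3.3), 1 mean per group over all libraries and variances moderated along a trend. The Benjamini-Hochberg adjustment ran over all tested genes within each of 6 comparisons, with a threshold of 0.05. Fold changes on this scale understate changes of low genes. Members with a mean of at least 5 TPM in a group and a call are given by library, and from each list up to 3 called genes of that level in OSM against CT and in each inhibitor group against OSM could be named. SLC38A5 is also given by library, a choice made after its values were seen.

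Alternatives were pseudocounts of 0.1 and 5 TPM, no filter, a filter at 5 TPM, median-of-ratios scaling, the replicate number as a block, removal of trends on GC content and length (splines with 4 degrees of freedom, genes with a mean log2 value over 2), voom on recovered reads and each library left out. The omission of CT replicate 1 and PF9363 replicate 3 together was chosen after seeing the data. Only the limma fit of OSM against CT was tried on simulated reads, with known changes, no GC trend and no outlying library. The trend removal, voom, read recovery and promoter search were not tested in this way. Promoters are from RefSeq (GRCh38.p14). Python 3.11.15 with pandas 2.3.3 and numpy 2.4.6 made the tables, and matplotlib 3.10.9 drew the figures.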

Additional observations from a re-analysis of the deposited data

How the results depend on the processing

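Of the 90 called changes among the 138 tested gene and comparison pairs, 54 were called in the same direction under all 21 alternatives that could be run for them. With removal of the GC and length trends, the counts of members called were 8 higher and 4 lower in OSM against CT (16 and 2 otherwise), 6 higher in CBP300 against OSM (3), 4 lower in PF9363 against CBP300 (11), 9 lower in PF9363 against CT (5) and 8 lower in CBP300 against CT (5). Members higher in CBP300 than OSM were 6 with a pseudocount of 5 TPM, 6 with median-of-ratios scaling, 5 with voom on recovered reads and 13 without CT replicate 1 and PF9363 replicate 3. Members lower in PF9363 than CBP300 were 5 with median-of-ratios scaling, and those higher were 9 (4 otherwise) with no filter, which admits more members.

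The changes named here were called with or without the alternative. Among changes called in neither form, 23 also turned sign under at least 1 alternative, and these are not listed. The sign turned with removal of the GC and length trends, in OSM against CT, for SLC7A11 (-0.15), SLC1A4 (-0.54), SLC36A4 (-0.30), SLC38A4 (-0.16), SLC38A6 (-0.28) and SLC38A9 (-0.12). It also turned for SLC36A4 in PF9363 against OSM (0.35), SLC7A11 in PF9363 against CBP300 (1.10), SLC7A2 in PF9363 against CT (-0.46), and in CBP300 against CT for SLC1A4 (-0.43), SLC1A1 (-0.23), SLC38A4 (-0.12), SLC38A6 (-0.71) and SLC38A9 (-0.30). With median-of-ratios scaling it turned for SLC1A5 in OSM against CT (-0.10), SLC38A10 in PF9363 against OSM (0.03) and, in CBP300 against CT, SLC3A2 (-0.39), SLC1A5 (-0.17) and SLC38A7 (-0.10). With voom it turned in CBP300 against CT for SLC3A2 (-0.26) and SLC1A5 (-0.04). The cause was not tested.

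Leaving out each library in turn gave 14 to 17 higher and 1 to 2 lower in OSM against CT, 5 to 6 and 8 to 9 in PF9363 against OSM, and 1 to 11 and 2 to 3 in CBP300 against OSM. It gave 4 to 4 and 6 to 12 in PF9363 against CBP300, 11 to 14 and 5 to 7 in PF9363 against CT, and 15 to 16 and 3 to 5 in CBP300 against CT. The count lower in OSM than CT was 1 without CT replicate 2 or 3 or OSM replicate 1. The count lower in PF9363 than CBP300 was 6 without PF9363 replicate 3 and 7 without CBP300 replicate 2, and that lower in CBP300 than CT was 3 without CT replicate 3 or CBP300 replicate 2 or 3. SLC7A1 in PF9363 against CBP300 went from -0.80 to -0.50 (limma adjusted p = 0.0861) without PF9363 replicate 3.

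Replicate numbers did not pair the libraries: same-numbered deviations correlated at -0.477 to 0.235, over 0.1 in 3 of 18 pairs. With the replicate block, 15 members were higher in OSM than CT and 12 lower in PF9363 than CBP300, other counts were as without it, SLC38A6 was no longer called in OSM against CT (0.40, adjusted p = 0.0518) and SLC38A10 was newly called in PF9363 against CBP300 (-0.19, adjusted p = 0.0433). Depth limits the low members: SLC1A1 and SLC38A4 had 3 reads each in CT replicate 1.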
